A study of Mus musculus with 12 samples.

Results

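Ribosome biogenesis genes encode the nucleolar proteins that transcribe, modify, cut and fold ribosomal RNA and assemble it with ribosomal proteins into the small and large ribosomal subunits. The set described here was a list of 40 such genes, chosen by name with earlier results of these data known. Of these, 37 were measured among 22180 genes, each through a probe set whose annotation named that gene alone. Fbl, Tsr1 and Mrto4 shared their probe sets with other genes and were not analysed here. For a gene with several probe sets, the one with the highest mean over all 12 arrays was used.

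Liver RNA was hybridised to 12 Affymetrix arrays, 3 in each of 4 groups that cross an injection with a diet. All mice were males 2 months old on a C57BL/6 background with floxed p53 alleles (Trp53tm1Brn), so the controls carried the floxed alleles too. They received equal titres of adenovirus through the tail vein, expressing either Cre recombinase (Adeno-Cre) or green fluorescent protein (Adeno-GFP). After 3 days they were either fasted for 24 h or fed standard chow freely. Cre was delivered by the virus and was not restricted by a cell type of the host, and the injections differed in the viral cargo as well as in recombination of p53. No probe set named Trp53 alone, so that gene was not analysed here and its loss was not checked on these arrays. The labels do not say whether each array is a separate mouse, so each p-value reflects how far arrays of a group differ, which may be technical.

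Ribosome production begins in the nucleolus, where RNA polymerase I transcribes a long precursor RNA. Small nucleolar ribonucleoproteins (snoRNPs) carry guide RNAs to it: box C/D particles methylate riboses and box H/ACA particles convert uridine to pseudouridine. Processing factors then cut and fold the precursor along separate paths for the small and the large subunit. Growth factors, nutrients and the transcription factor Myc are known to raise this programme. p53 is known to repress RNA polymerase I, and ribosomal proteins left unassembled when the process fails are known to stabilise p53 by binding Mdm2.

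Values were deposited log2 levels, so a difference of 1 is a doubling. All 37 genes had a mean above the lowest array median of 6.26, whereas 43.6% of all genes did not. Levels of Nhp2, Rrp1b, Bop1, Rrp9 and Rrp12 were close to the array medians of 6.26 to 6.33 and are not shown to be above background. Correlations between arrays within a group were 0.991 to 0.994 across all genes. The pooled standard deviation within groups had a median of 0.0944 over the 37 genes and 0.135 over all genes. Cell division genes, measured for 29 of 31 listed, all rose with Adeno-Cre in fasted livers, by a median of 1.53, and 12 of 29 rose in fed livers, with a median difference of 1.11 over the list. Hepatocyte markers had mean levels of 12.3 to 12.5 in every array, as the labelled tissue would have.

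With Adeno-Cre, most ribosome biogenesis genes lay slightly higher than with Adeno-GFP. The snoRNP proteins Nop58 and Dkc1, 2 of 37, passed limma's adjusted test in fasted livers and over both diets, and 0 passed in fed livers. Of all genes, 2.75% passed in fasted livers, 5.59% over both diets and 1.49% in fed livers. Averaged over the 37 genes, the log2 level was 8.59, 8.64 and 8.59 in the fasted Adeno-Cre arrays and 8.56, 8.56 and 8.58 in the fed ones. After Adeno-GFP it was 8.53, 8.45 and 8.48 in the fasted arrays and 8.44, 8.54 and 8.49 in the fed ones. Each of the 6 Adeno-Cre arrays was above each of the 6 Adeno-GFP arrays in this average. The same held for 112 other biogenesis genes, averaging 8.47 to 8.54 after Adeno-Cre and 8.37 to 8.43 after Adeno-GFP. Cell division genes had a wider separation, with an averaged level between 8.38 and 8.74 after Adeno-Cre and between 6.51 and 8.03 after Adeno-GFP. The 37 genes and the cell division genes were higher in the same arrays, and whether they depend on each other was not tested.

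**Figure D1:**
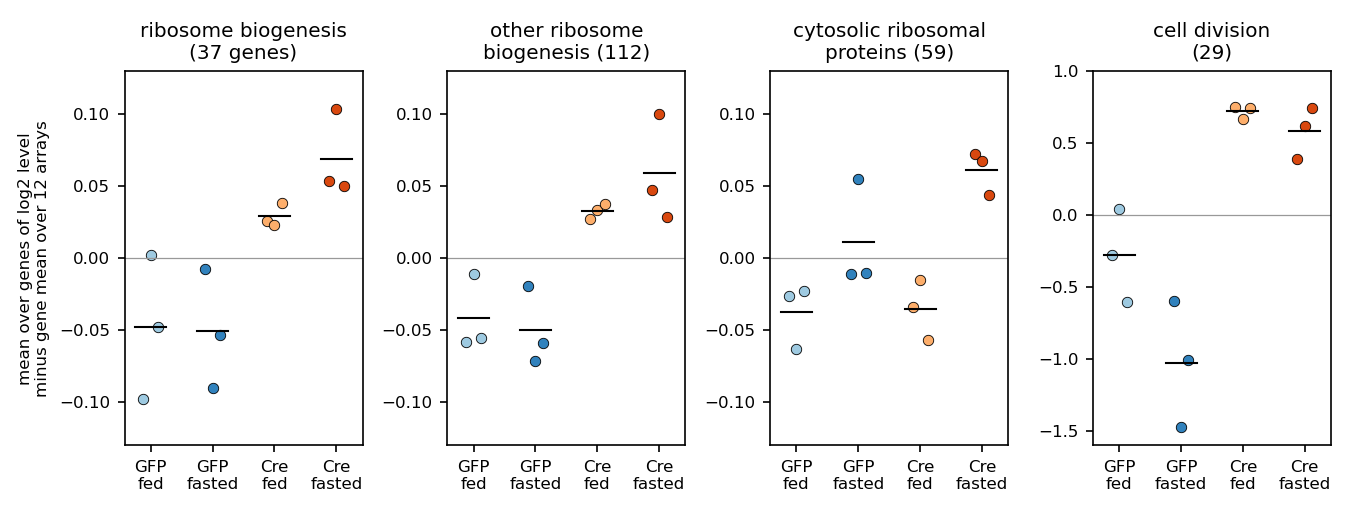
Each point is 1 array, and its height is the mean over a gene list of the log2 level minus the gene's mean over 12 arrays, with a line at the mean of the 3 arrays of a group. Panels show the 37 ribosome biogenesis genes, 112 other biogenesis genes, 59 ribosomal protein genes and, on a wider scale, 29 cell division genes. All Adeno-Cre points lie above all Adeno-GFP points in each panel except that of the ribosomal protein genes.

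In fasted livers, 31 of the 37 genes had a positive log2 difference between Adeno-Cre and Adeno-GFP, and 41.6% of all genes did. The median difference was 0.12 for the 37 genes and -0.03 for all genes, with a range of -0.27 to 0.49. At an adjusted p under 0.05 in limma, 2 genes rose and 0 fell, where 2.75% of all genes passed, 2.26% rising and 0.482% falling. An unadjusted p under 0.05 was reached by 9, and the share of all genes at that level was not computed. The 3 Adeno-Cre arrays were all above the 3 Adeno-GFP arrays for 10 of 37 genes, against 9.96% of all genes, and all below for 0, against 10.9%. Among the 10677 genes within the same range of mean levels, 51.7% had a positive difference, 16.4% had all 3 arrays above and 4.04% rose. After the arrays were quantile-normalised again, 29 of 37 differences were positive, with a median of 0.07.

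Fed livers gave a similar count of positive differences, 29 of 37, against 44.4% of all genes, with a median of 0.08 against -0.02 for all genes. No gene passed limma's adjusted test there (0 of 37, against 1.49% of all genes, 1.08% rising and 0.415% falling), and 3 had an unadjusted p under 0.05: Nop58, Noc3l and Wdr43. With a trended and robust variance prior the count was 1, where 2.43% of all genes passed, and without dim genes it was 1, where 4.47% of the 12369 genes kept passed. That gene was Nop58 both times, and the count was also 1 without the Adeno-GFP fasted replicate 2 array, where 1.63% of all genes passed. The 3 Adeno-Cre arrays were all above for 10 genes, against 8.4% of all genes, and all below for 0, against 11.5%. Of the 10677 genes within the same range of mean levels, 44.8% had a positive difference, 12.7% had all 3 arrays above and 1.88% rose. Both diets gave a positive difference for 27 genes and a negative one for 4, namely Nop10, Rrp9, Nob1 and Ppan. The sign differed between the diets for Heatr1, Bysl, Ltv1, Bop1, Pes1 and Noc2l.

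Averaged over diets, 30 of 37 differences were positive, against 40.1% of all genes, and the median was 0.10 against -0.03. By limma's adjusted test 2 genes (5.41%) rose and 0 fell, where 5.59% of all genes passed, 3.55% rising and 2.03% falling. Of the 10677 genes within the same range of mean levels, 47.4% had a positive difference and 6.43% rose. An unadjusted p under 0.05 was reached by 16 of the 37, and the share of all genes at that level was not computed. Without dim genes the count that rose was 6, adding Nhp2, Polr1a, Rrp1b and Wdr12, while 14.2% of the 12369 genes kept passed. It was 1 without any of these arrays in turn: Adeno-Cre fasted replicate 2, Adeno-Cre fed replicate 3, Adeno-GFP fasted replicate 3, Adeno-GFP fed replicate 1 and Adeno-GFP fed replicate 3. Without those arrays 3.72% to 4.59% of all genes passed.

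**Figure D2:**
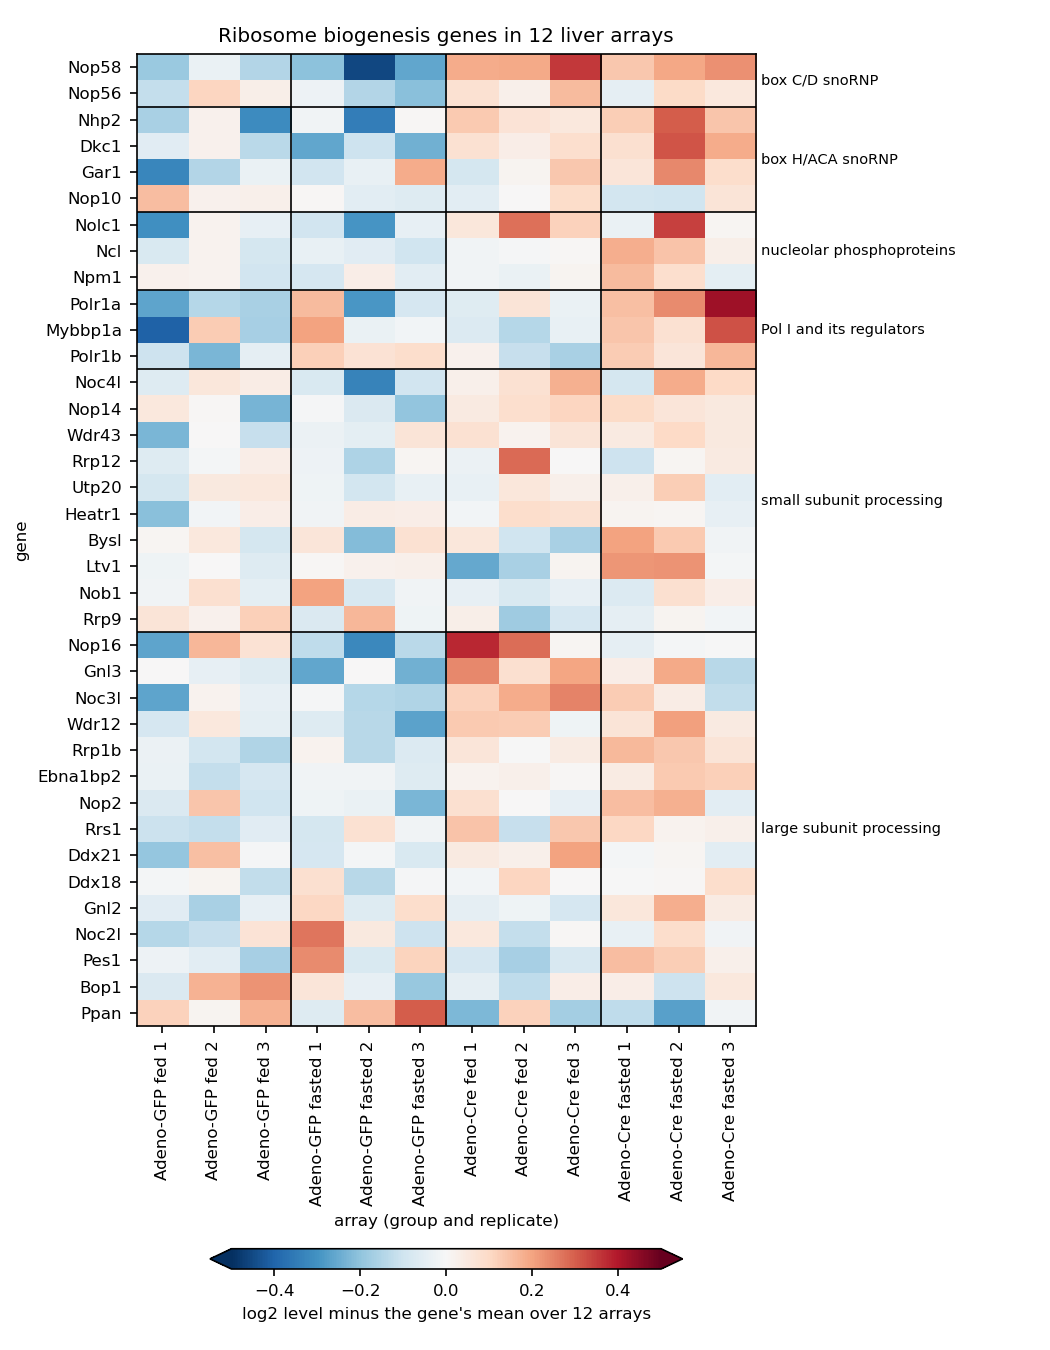
Log2 level of each of the 37 genes in each of the 12 arrays minus that gene's mean over the arrays, with rows grouped by role and columns by injection and diet. Nop58, in the top row, is lower in all 6 Adeno-GFP columns than in any of the 6 Adeno-Cre columns.

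**Figure D3:**
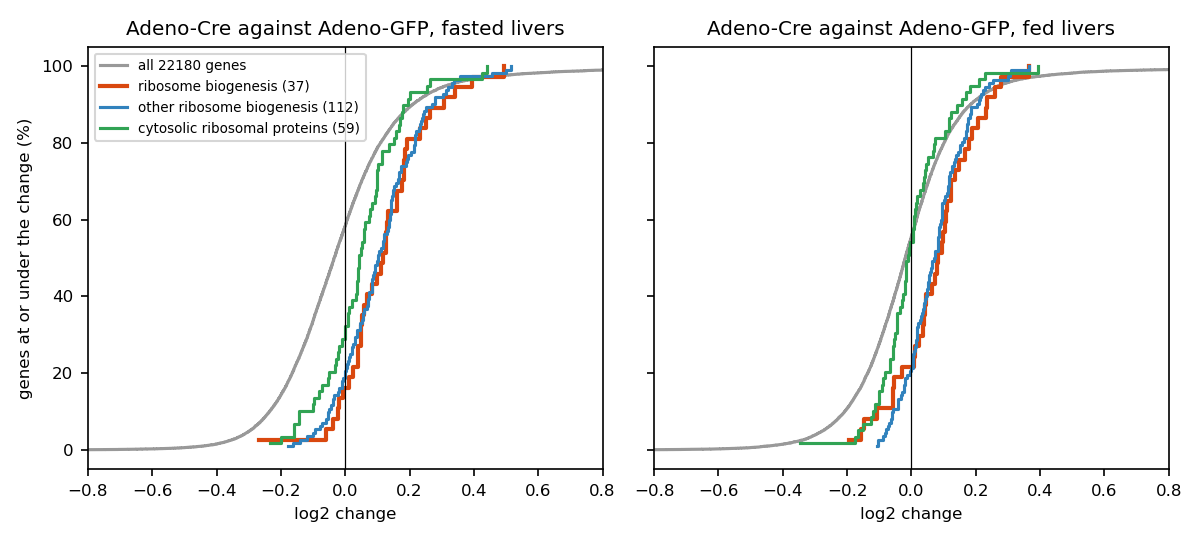
Cumulative share of genes (vertical axis) by log2 difference between Adeno-Cre and Adeno-GFP (horizontal axis), in fasted livers (left) and fed livers (right), for the 37 genes, the 112 other biogenesis genes, 59 ribosomal protein genes and all genes. Over most of their range the curves of both biogenesis lists lie to the right of that of all genes, with medians of 0.12 and 0.10 in fasted livers against -0.03.

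A box C/D core protein, Nop58, had the largest difference of the set. Nop58, a scaffold protein that holds the guide RNA and the methyltransferase Fbl in the particle, read 10.41, 10.46 and 10.50 in fasted Adeno-Cre livers and 10.07, 9.81 and 10.01 in fasted Adeno-GFP livers (probe set 17213295). In fed livers it read 10.46, 10.46 and 10.63 after Adeno-Cre and 10.08, 10.24 and 10.12 after Adeno-GFP. The injections did not overlap in either diet, and the lowest Adeno-Cre array was above the highest Adeno-GFP array.

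The log2 difference of Nop58 was 0.49 ± 0.09 (SE) in fasted livers, where it rose with an adjusted p of 0.00779 in limma. In fed livers it was 0.37 ± 0.09, with an adjusted p of 0.0629, which misses the threshold, and a 95% interval of 0.18 to 0.55. Over both diets Nop58 rose by 0.43 ± 0.06, with an adjusted p of 0.00127. This call held in all 18 alternatives, with adjusted p between 0.000124 and 0.0053, and the fasted call ended when only the fasted arrays were fitted (adjusted p = 0.05). Its partner Nop56, the other scaffold protein of the particle, differed by 0.12 ± 0.06 over both diets, with an adjusted p of 0.292, and its groups overlapped in both diets.

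Of the box H/ACA proteins, the catalytic subunit rose. Dkc1, the pseudouridine synthase, read 8.38, 8.61 and 8.48 in fasted Adeno-Cre livers and 8.04, 8.19 and 8.06 in fasted Adeno-GFP livers (probe set 17535930). In fed livers it read 8.37, 8.33 and 8.38 after Adeno-Cre and 8.24, 8.32 and 8.16 after Adeno-GFP. The fasted groups were well apart, and the fed groups were separated by less than the range of the Adeno-GFP arrays.

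Dkc1 rose by 0.39 ± 0.08 in fasted livers, with an adjusted p of 0.0221 in limma, and differed by 0.12 ± 0.08 in fed livers, with an adjusted p of 0.612. Over both diets it rose by 0.26 ± 0.06, with an adjusted p of 0.0213. The difference between the diets was 0.27 ± 0.12, with an adjusted p of 0.645, so the diets are not shown to differ. The fasted call was lost when 1 of these arrays was left out: Adeno-Cre fasted replicate 2 (adjusted p = 0.105), Adeno-GFP fasted replicate 1 (0.0859) or Adeno-GFP fasted replicate 3 (0.0769). It was also lost when only the fasted arrays were fitted (0.113) and when all probe sets were tested (0.0535). The call over both diets was lost without any of these arrays in turn, with adjusted p of up to 0.0608: Adeno-Cre fasted replicate 2, Adeno-Cre fed replicate 3, Adeno-GFP fasted replicates 1 and 3, and Adeno-GFP fed replicates 1 and 3.

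The other H/ACA proteins did not pass. Nhp2, which binds the guide RNA, differed by 0.27 ± 0.08 over both diets, with an adjusted p of 0.0671, and its Adeno-Cre arrays were above the Adeno-GFP arrays in each diet. Gar1, which helps release the modified RNA, differed by 0.15 ± 0.07, and Nop10, a small linker protein of the core, by -0.03 ± 0.05.

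**Figure D4:**
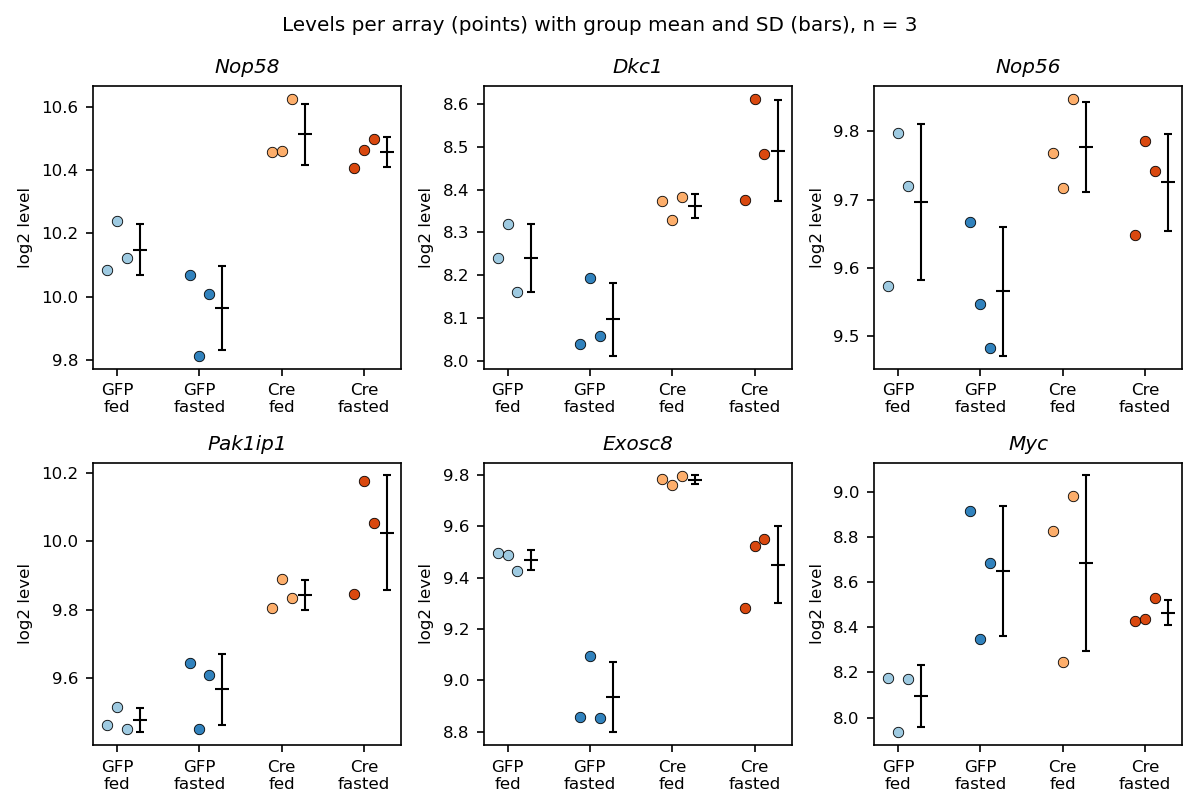
Log2 level in each array (points) with the group mean and SD (bars, n = 3) by injection and diet, for Nop58, Dkc1, Nop56, the further biogenesis genes Pak1ip1 and Exosc8, and Myc, each on its own scale. Within each diet the Adeno-Cre points of Nop58, Dkc1, Pak1ip1 and Exosc8 lie above the Adeno-GFP points, and those of Nop56 overlap.

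The promoters of Nop58 and Dkc1, the genes that rose, are shown with that of Nop2, a ribosomal RNA methyltransferase of the large subunit path. Each is the stretch of 250 bases before the annotated start, from RefSeq in build GRCm38.p6 on the plus strand. Nop2 was picked by rule as a member with a CACGTG upstream of its start, and the other windows were chosen after their values were seen. Nop58 lies at chr1:59684756-59685005, Dkc1 at chrX:75095604-75095853 and Nop2 at chr6:125131633-125131882. Capitals mark matches to any of 4 motifs searched on both strands: CACGTG (the E-box that Myc and other factors bind), GGGCGG (the GC box of Sp factors), CCGGAAG (bound by ETS factors) and the motif of Nrf1.
Nop58: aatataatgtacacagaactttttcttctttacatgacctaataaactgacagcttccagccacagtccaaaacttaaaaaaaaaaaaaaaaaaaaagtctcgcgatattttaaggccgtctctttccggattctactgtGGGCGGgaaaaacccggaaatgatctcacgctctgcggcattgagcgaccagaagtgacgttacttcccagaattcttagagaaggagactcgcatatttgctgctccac
Dkc1: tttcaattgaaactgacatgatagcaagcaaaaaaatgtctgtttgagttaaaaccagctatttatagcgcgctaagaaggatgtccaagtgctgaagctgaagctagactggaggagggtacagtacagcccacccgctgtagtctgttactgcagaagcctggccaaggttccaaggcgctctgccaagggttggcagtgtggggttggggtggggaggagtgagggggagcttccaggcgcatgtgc
Nop2: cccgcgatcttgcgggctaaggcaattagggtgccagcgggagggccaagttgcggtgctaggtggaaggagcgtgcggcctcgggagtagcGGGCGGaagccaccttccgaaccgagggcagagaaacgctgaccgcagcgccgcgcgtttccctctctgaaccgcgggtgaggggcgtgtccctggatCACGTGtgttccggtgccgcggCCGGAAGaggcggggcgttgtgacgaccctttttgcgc
Nop58 held 1 GC box, Dkc1 held none of the 4 motifs, and Nop2 held 1 E-box, 1 GC box and 1 ETS motif, and no matches overlapped.

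In windows from 250 bases before to 50 bases after the start, which the RefSeq table gave for 32 of the 37 genes, CACGTG was found in 6 (18.8%), against 9.19% of the 16990 measured genes with a window and 7.15% of all 32851 windows. GGGCGG was found in 23 (71.9%, against 49.5% and 35.7%), CCGGAAG in 10 (31.2%, against 12.7% and 8.86%) and the Nrf1 motif in 5 (15.6%, against 7.24% and 4.6%). Of 97 other biogenesis genes with a window, 20.6% held CACGTG, 69.1% GGGCGG, 47.4% CCGGAAG and 17.5% the Nrf1 motif, so these shares are not particular to the 37 genes. The 6 members with CACGTG are shown around that match, in the direction of the gene, to set their sequence beside their response.
Mybbp1a: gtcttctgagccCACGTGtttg
Wdr43: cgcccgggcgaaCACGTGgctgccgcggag
Utp20: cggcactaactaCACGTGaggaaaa
Ltv1: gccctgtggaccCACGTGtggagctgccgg
Pes1: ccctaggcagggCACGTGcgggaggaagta
Nop2: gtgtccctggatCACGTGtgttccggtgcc
Each printed stretch lies around its match, at chr11:72441355-72441376 for Mybbp1a, chr17:71616220-71616249 for Wdr43, chr10:88826765-88826789 (minus strand) for Utp20, chr10:13193092-13193121 (minus strand) for Ltv1, chr11:3963965-3963994 for Pes1 and chr6:125131811-125131840 for Nop2. Their log2 differences with Adeno-Cre over both diets were 0.10, 0.12, 0.05, 0.01, -0.01 and 0.11 in that order. The match lay before the annotated start in Nop2 and after it in Mybbp1a, Wdr43, Utp20, Ltv1 and Pes1. The median was 0.07 for these 6 genes and 0.13 for the 26 without CACGTG in the window, and Nop58 and Dkc1 were among those without. Whether the motif bears on the response was not tested.

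The 3 nucleolar phosphoproteins all had positive differences in both diets, and 0 passed limma's test (unadjusted p under 0.05 for Ncl and Nolc1 over both diets). Nolc1, a chaperone of snoRNPs, read 9.03, 9.41 and 9.07 in fasted and 9.12, 9.34 and 9.18 in fed Adeno-Cre livers (probe set 17359902). After Adeno-GFP it read 8.97, 8.77 and 9.02 fasted and 8.76, 9.08 and 9.02 fed. The groups did not overlap in either diet, although the lowest Adeno-Cre array was close to the highest Adeno-GFP array, and the difference over both diets was 0.25 ± 0.09, with an adjusted p of 0.118. Ncl (nucleolin), which binds the nascent precursor, differed by 0.18 ± 0.07 in fasted and 0.04 ± 0.07 in fed livers. Npm1 (nucleophosmin), an abundant histone and ribosome chaperone, differed by 0.05 ± 0.05 over both diets.

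RNA polymerase I was represented by its 2 largest subunits and a regulator. Polr1a, the largest subunit, read 9.29, 9.37 and 9.56 in fasted and 9.08, 9.20 and 9.10 in fed Adeno-Cre livers (probe set 17459550). After Adeno-GFP it read 9.30, 8.85 and 9.05 fasted and 8.87, 8.99 and 8.97 fed. Replicate 1 of the fasted Adeno-GFP arrays reached into the Adeno-Cre range, and the fed groups were apart. The difference over both diets was 0.26 ± 0.08, with an adjusted p of 0.0782, and it passed without Adeno-GFP fasted replicate 1 (adjusted p = 0.0251), without dim genes (0.0384) and with the trended prior (0.0363). Polr1b, the second largest subunit, differed by 0.03 ± 0.05 between injections, and Mybbp1a, a nucleolar protein that binds Myb and represses ribosomal gene transcription, by 0.10 ± 0.09.

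Among the 10 small subunit factors, 8 had a positive difference over both diets, with a median of 0.05, and 0 passed limma's test (unadjusted p under 0.05 for Nop14, Noc4l and Wdr43). Nop14, a component of the early small subunit particle, read 8.92, 8.88 and 8.87 in fasted and 8.87, 8.91 and 8.93 in fed Adeno-Cre livers (probe set 17447289). Adeno-GFP livers read 8.82, 8.75 and 8.63 fasted and 8.88, 8.83 and 8.59 fed. The fasted groups did not overlap and the fed groups did, and the difference over both diets was 0.15 ± 0.06, with an adjusted p of 0.198. Noc4l, the partner of Nop14 in that particle, differed by 0.16 ± 0.07, and Wdr43, which also joins the early particle, by 0.12 ± 0.05. Differences of Utp20, Heatr1, Rrp12, Bysl and Ltv1 ranged from 0.01 (Ltv1) to 0.07 (Rrp12). Nob1, the nuclease that trims the end of the small subunit RNA, differed by -0.04 ± 0.06 and Rrp9, a protein of the U3 particle, by -0.09 ± 0.06.

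Large subunit factors, 15 in number, gave 11 positive differences over both diets, with a median of 0.10, and 0 passed limma's test (unadjusted p under 0.05 for Wdr12, Rrp1b, Noc3l, Gnl3, Ppan, Ebna1bp2 and Nop16). Wdr12, which forms the PeBoW complex with Pes1 and Bop1, read 8.002, 8.141 and 7.979 in fasted and 8.07, 8.06 and 7.92 in fed Adeno-Cre livers (probe set 17223594). After Adeno-GFP it read 7.87, 7.80 and 7.67 fasted and 7.85, 7.99 and 7.89 fed. The fasted groups did not overlap and the fed groups did, and the difference over both diets was 0.18 ± 0.06, with an adjusted p of 0.0992 (0.0428 without dim genes). Its partners in the complex differed by -0.01 ± 0.06 (Pes1) and -0.05 ± 0.07 (Bop1).

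Noc3l, a factor of the early large subunit particle, read 7.99, 8.06 and 8.12 in fed Adeno-Cre livers against 7.61, 7.89 and 7.83 in fed Adeno-GFP livers (probe set 17364367). In fasted livers it read 8.004, 7.914 and 7.753 after Adeno-Cre and 7.87, 7.73 and 7.72 after Adeno-GFP. The fed groups were apart and the fasted groups overlapped, and the differences were 0.28 ± 0.09 (adjusted p = 0.216) and 0.12 ± 0.09 (adjusted p = 0.578). Noc3l had the most negative difference between the diets of the 37 genes, at -0.16 ± 0.13.

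Nop16, another large subunit factor, read 7.39, 7.42 and 7.43 in fasted and 7.81, 7.71 and 7.44 in fed Adeno-Cre livers (probe set 17292712). In the Adeno-GFP arrays the level was 7.31, 7.11 and 7.30 fasted and 7.17, 7.60 and 7.51 fed. The fasted groups did not overlap, and the difference over both diets was 0.20 ± 0.09, with an adjusted p of 0.213. Gnl3 (nucleostemin), a nucleolar GTPase abundant in dividing cells, differed by 0.20 ± 0.07, Rrp1b by 0.15 ± 0.05 and Ebna1bp2 by 0.11 ± 0.05. Nop2, the GTPase Gnl2, the RNA helicases Ddx21 and Ddx18, and Rrs1 had differences of 0.04 to 0.11, and Noc2l of -0.01.

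Ppan, an assembly factor of the large subunit, had the most negative difference. It read 8.25, 8.10 and 8.36 in fasted and 8.15, 8.49 and 8.20 in fed Adeno-Cre livers (probe set 17515058). Its Adeno-GFP levels were 8.31, 8.53 and 8.68 fasted and 8.49, 8.39 and 8.55 fed. The groups overlapped in both diets, and the difference over both diets was -0.23 ± 0.08, with an adjusted p of 0.134. A dimmer second probe set of Ppan (17515045) had the opposite sign, 0.20 ± 0.06, so the direction of this gene is not settled.

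**Figure D5:**
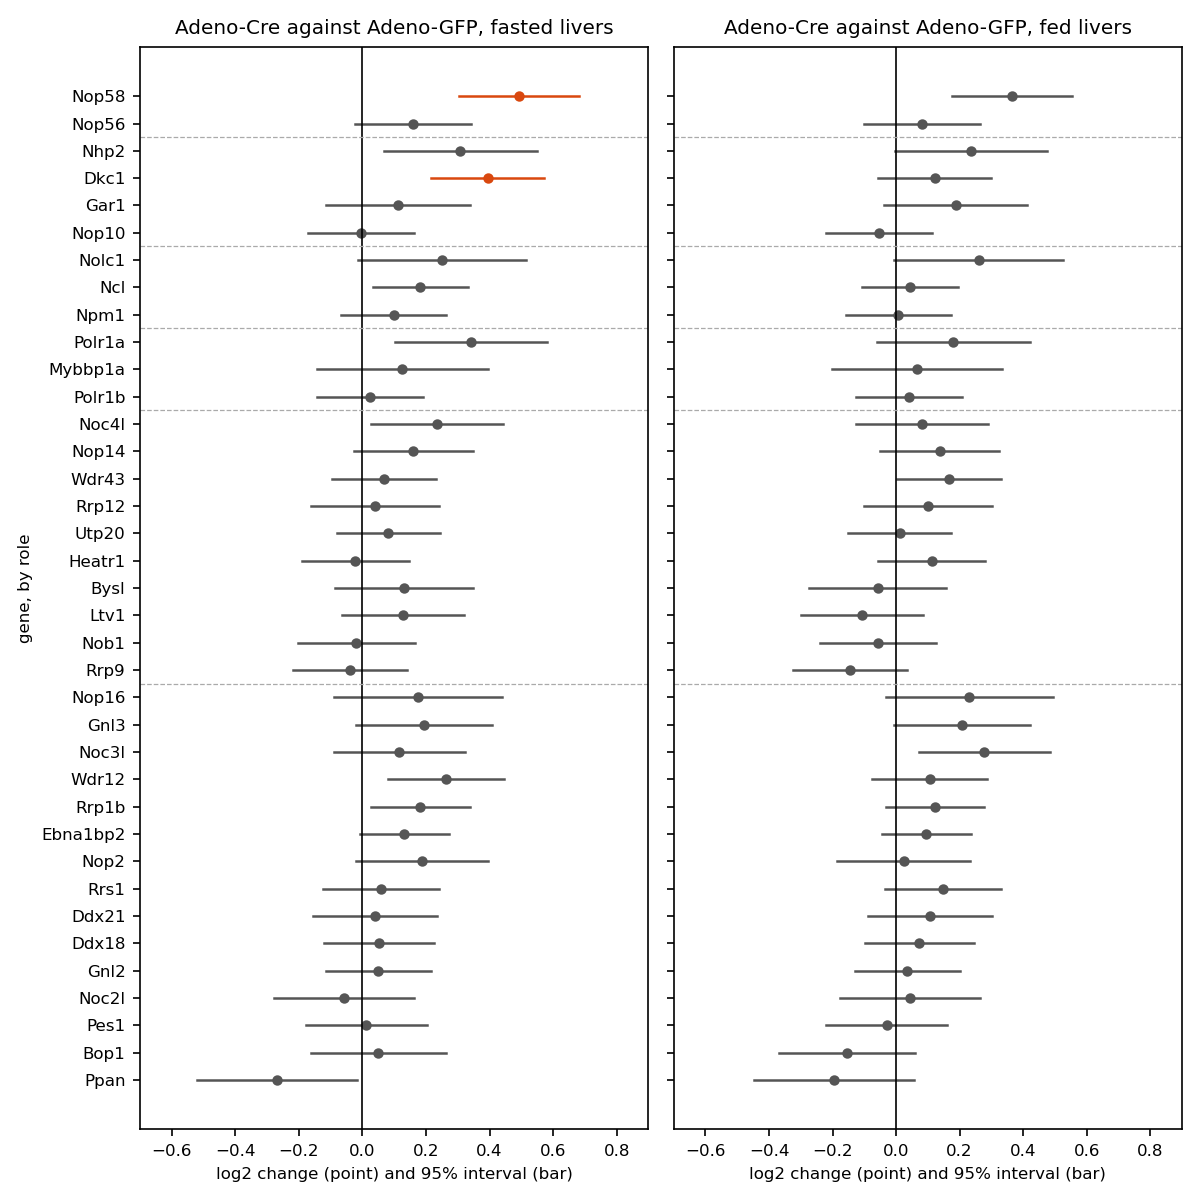
Log2 difference between Adeno-Cre and Adeno-GFP (points) for each of the 37 genes, in order of role, in fasted livers (left) and fed livers (right), with 95% intervals (bars) from the moderated fit that are not adjusted for the number of genes. Orange marks the genes that passed the test, Nop58 and Dkc1 in fasted livers, and most of the other intervals include 0.

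The genes that did not pass were bounded gene by gene, with 95% intervals not adjusted for the number of genes. In fasted livers, the 95% intervals of the 35 genes not called ran from -0.52 (Ppan) to 0.58 (Polr1a), and in fed livers those of all 37 ran from -0.45 (Ppan) to 0.55 (Nop58). Each of the 37 intervals lay within a log2 difference of 1 in either direction in both diets, and within 0.5 for 31 genes in fasted and 35 in fed livers.

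Other ribosome biogenesis genes, a list of 119 of which 112 were measured, showed differences of the same size. With Adeno-Cre, 89 of 112 were positive in fasted livers (against 41.6% of all genes) and 88 in fed livers (44.4%). Over both diets 94 were positive (40.1%), and the medians were 0.10, 0.07 and 0.08. By limma's adjusted test 2 rose in fasted livers, 0 in fed livers and 6 over both diets, and 0 fell in any of these. That is 1.79%, 0% and 5.36% of the list, where 2.75%, 1.49% and 5.59% of all genes passed. In fed livers 13 had an unadjusted p under 0.05, and 1 passed adjusted with a trended prior or without dim genes. All 3 Adeno-Cre arrays were above for 33 genes in fasted and 27 in fed livers, against 9.96% and 8.4% of all genes. They were all below for 1 and 3, against 10.9% and 11.5%. Both diets placed all 3 above for 10 of them: Taf1d, Utp15, Bms1, Dnttip2, Ddx10, Brix1, Ftsj3, Nol8, Pak1ip1 and Exosc8. The share of all genes above in both diets was not computed. The number called in fasted livers was 1 without Adeno-Cre or Adeno-GFP fasted replicate 2, where 1.6% and 1.74% of all genes passed. It was 4 without Adeno-Cre fasted replicate 3, where 3.61% of all genes passed. Over both diets it was 2 when Adeno-Cre fasted replicate 2 or replicate 3 of either fed group was left out. It was 3 when Adeno-Cre fasted replicate 1, Adeno-GFP fasted replicate 2 or Adeno-GFP fed replicate 1 was left out. Without each of these 6 arrays 3.72% to 4.52% of all genes passed over both diets.

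Pak1ip1, a nucleolar protein of the early large subunit particle, read 9.85, 10.18 and 10.05 in fasted and 9.80, 9.89 and 9.83 in fed Adeno-Cre livers. After Adeno-GFP it read 9.64, 9.45 and 9.61 fasted and 9.46, 9.52 and 9.45 fed. Every Adeno-Cre array was above every Adeno-GFP array. It rose by 0.46 ± 0.09 in fasted livers (adjusted p = 0.0168) and by 0.41 ± 0.06 over both diets (adjusted p = 0.00226). Leaving out Adeno-Cre fasted replicate 2 ended the fasted call (adjusted p = 0.0801), as did leaving out Adeno-GFP fasted replicate 2 (0.0769) or fitting only the fasted arrays (0.107), and the call over both diets held in all 18 alternatives.

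Exosc8, a subunit of the RNA exosome that trims ribosomal RNA, read 9.28, 9.52 and 9.55 in fasted and 9.79, 9.76 and 9.80 in fed Adeno-Cre livers. With Adeno-GFP the values were 8.86, 9.09 and 8.86 fasted and 9.49, 9.49 and 9.43 fed. Injections did not overlap within a diet, and the fed arrays were above the fasted ones after either injection. It rose with Adeno-Cre by 0.52 ± 0.09 in fasted livers (adjusted p = 0.00798, and 0.0739 with only the fasted arrays) and by 0.41 ± 0.06 over both diets (adjusted p = 0.00226). Of the remaining genes that rose over both diets, Ftsj3, a ribosomal RNA methyltransferase, rose by 0.30 ± 0.07 (adjusted p = 0.0228) and Bms1, a GTPase of the small subunit particle, by 0.26 ± 0.06 (adjusted p = 0.024). The call of Ftsj3 was lost when the array left out was Adeno-Cre fasted replicate 2, Adeno-Cre fed replicate 1 or 3, Adeno-GFP fasted replicate 2 or Adeno-GFP fed replicate 3, with adjusted p of up to 0.062, and when all probe sets were tested (0.054). That of Bms1 was lost when the array left out was Adeno-Cre fasted replicate 1 or 2, Adeno-Cre fed replicate 3, Adeno-GFP fasted replicate 3 or Adeno-GFP fed replicate 1 or 3, with adjusted p of up to 0.064. It was also lost when the probe sets of a gene were averaged (0.0728) and when all probe sets were tested (0.0536).

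Myc did not pass in any comparison. It read 8.43, 8.44 and 8.53 in fasted and 8.83, 8.25 and 8.98 in fed Adeno-Cre livers, against 8.92, 8.35 and 8.68 in fasted and 8.17, 7.94 and 8.17 in fed Adeno-GFP livers. The fed groups did not overlap and the fasted groups did. Its difference with Adeno-Cre was -0.18 ± 0.18 in fasted livers (adjusted p = 0.644) and 0.59 ± 0.18 in fed livers (adjusted p = 0.151), and it passed in fed livers without Adeno-Cre fed replicate 2 (adjusted p = 0.0422), the lowest array of its group. With fasting it differed by 0.55 ± 0.18 after Adeno-GFP (adjusted p = 0.127, and 0.0499 without Adeno-Cre fed replicate 2) and by -0.22 ± 0.18 after Adeno-Cre (adjusted p = 0.604). Of the 11 Myc network genes measured, 1 passed over both diets, where 5.59% of all genes did. Mga, a repressor that pairs with Max, was that gene and rose by 0.27 ± 0.07 (adjusted p = 0.0286 in limma). That call was lost when the array left out was Adeno-Cre fasted replicate 2, Adeno-Cre fed replicate 1 or 2, Adeno-GFP fasted replicate 1 or 2, or Adeno-GFP fed replicate 3, with adjusted p of up to 0.0756. It was also lost after a further quantile normalisation (0.0503) and when all probe sets were tested (0.0631).

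The 59 measured genes of cytosolic ribosomal proteins, the cargo of this pathway, gave 40 positive differences with Adeno-Cre in fasted and 27 in fed livers. Their medians were 0.04 and -0.01, and 41.6% and 44.4% of all genes were positive. None of the 59 passed limma's test in either diet (unadjusted p under 0.05 for 7 and 1), where 2.75% and 1.49% of all genes passed. Over both diets Rpl3 alone of the 59 rose, by 0.42 ± 0.08 (adjusted p = 0.0115), where 5.59% of all genes passed. With the probe sets of each gene averaged, the difference of Rpl3 was 0.12, with an adjusted p of 0.344.

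Fasting left the 37 genes without a passing change. After Adeno-GFP, 17 differences between fasted and fed livers were positive and 20 negative, with a median of -0.01 (0.00389 after a further quantile normalisation, so with no settled sign), and 53.3% of all genes were positive. By limma 0 of 37 passed (1 at an unadjusted p under 0.05, Polr1b), against 3.07% of all genes, 1.2% rising and 1.87% falling. The fasted arrays were all above for Polr1b and Ltv1 and all below for Nop58, Nop10 and Noc4l, that is 2 and 3 of 37, against 11.1% of all genes each way.

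After Adeno-Cre, 22 differences between fasted and fed livers were positive and 15 negative, with a median of 0.03, and 49.8% of all genes were positive. By limma 0 of 37 passed (4 at an unadjusted p under 0.05: Ltv1, Polr1b, Polr1a and Pes1), against 2.67% of all genes, 1.5% rising and 1.17% falling. Without Adeno-Cre fasted replicate 3, Ltv1 passed (adjusted p = 0.0496) and the count was 1, where 3.21% of all genes passed. The fasted arrays were all above for 8 genes (Ncl, Polr1a, Polr1b, Mybbp1a, Pes1, Gnl2, Ebna1bp2 and Rrp1b), against 11.3% of all genes, and all below for 2 (Nop16 and Ddx21), against 9.81%. Intervals of the 37 genes, not adjusted for the number of genes, lay within 0.5 in either direction for 37 after Adeno-GFP and for 34 after Adeno-Cre.

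The polymerase group was the role in which every gene had a positive difference with fasting after both injections, a pattern noticed after the values were seen. Polr1b read 7.32, 7.27 and 7.28 in fasted and 7.09, 6.97 and 7.15 in fed Adeno-GFP livers (probe set 17376096). After Adeno-Cre it read 7.32, 7.26 and 7.36 fasted and 7.22, 7.08 and 7.04 fed. Fasted arrays were above fed arrays after each injection, by 0.22 ± 0.08 (adjusted p = 0.166) and 0.20 ± 0.08 (adjusted p = 0.211). Polr1a differed by 0.12 ± 0.11 and 0.28 ± 0.11, and Mybbp1a by 0.20 ± 0.12 and 0.26 ± 0.12.

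Ltv1, which keeps the small subunit immature until it reaches the cytoplasm, had the largest difference with fasting after Adeno-Cre. It read 10.04, 10.04 and 9.81 in fasted and 9.57, 9.66 and 9.83 in fed Adeno-Cre livers (probe set 17239371). After Adeno-GFP it read 9.83, 9.84 and 9.85 fasted and 9.80, 9.82 and 9.76 fed. The groups overlapped after Adeno-Cre through 1 array of each diet, and the differences were 0.28 ± 0.09 after Adeno-Cre (adjusted p = 0.129) and 0.05 ± 0.09 after Adeno-GFP. Nop16 had the most negative difference with fasting after both injections, at -0.19 ± 0.12 and -0.24 ± 0.12.

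Among the 112 other biogenesis genes, Pum3, a nucleolar RNA-binding protein, rose with fasting by 0.34 ± 0.07 after Adeno-GFP (adjusted p = 0.0265) and by 0.35 ± 0.07 after Adeno-Cre (adjusted p = 0.0257). It read 9.20, 9.15 and 9.06 in fasted and 8.81, 8.82 and 8.76 in fed Adeno-GFP livers. After Adeno-Cre it read 9.16, 9.25 and 9.13 fasted and 8.87, 8.88 and 8.75 fed. All fasted arrays were above all fed arrays. Exosc8 fell with fasting after Adeno-GFP by 0.53 ± 0.09 (adjusted p = 0.00902) and differed by -0.33 ± 0.09 after Adeno-Cre (adjusted p = 0.0834). Taf1b, a subunit of the selectivity factor that brings polymerase I to its promoter, rose after Adeno-Cre by 0.48 ± 0.11 (adjusted p = 0.038). The calls of Pum3 were lost without any array of the Adeno-GFP or Adeno-Cre groups compared except Adeno-GFP fasted replicate 3 and Adeno-Cre fasted replicate 3, with adjusted p of up to 0.0921 and 0.0988. They were also lost when only the groups compared were fitted (0.0773 and 0.105) and when all probe sets were tested (0.0602 and 0.0596). That of Taf1b was lost without Adeno-Cre fasted replicate 1 or 2, any Adeno-Cre fed array, Adeno-GFP fasted replicate 1 or Adeno-GFP fed replicate 3, with adjusted p of up to 0.15, as well as with only the groups compared (0.0794) and with all probe sets (0.0874).

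The fasting counts of these other genes rested on few arrays. After Adeno-GFP 1 rose and 1 fell, where 3.07% of all genes passed. The total was 1 without Adeno-GFP fasted replicate 1 or 2 or Adeno-GFP fed replicate 2 or 3, where 1.24% to 2.2% of all genes passed. After Adeno-Cre 2 rose and 0 fell, where 2.67% of all genes passed. No call was left (0) when replicate 1 or 2 of the fasted or any of the fed Adeno-Cre arrays was left out, where 0.933% to 1.49% of all genes passed. The count was 1 without Adeno-GFP fasted replicate 1 or Adeno-GFP fed replicate 3, where 2.45% and 2.26% of all genes passed. Of the ribosomal protein genes, 40 of 59 had positive differences with fasting after Adeno-GFP and 46 after Adeno-Cre, against 53.3% and 49.8% of all genes. After Adeno-Cre 1 of the 59 passed, where 2.67% of all genes did. Fau, which encodes a small subunit protein, was that gene and rose by 0.36 ± 0.08 (adjusted p = 0.028 in limma). That call was lost when replicate 1 or 2 of the fasted or any of the fed Adeno-Cre arrays was left out, with adjusted p of up to 0.108. Averaging the probe sets of a gene gave 0.25 (adjusted p = 0.222), and the call was also lost with only the groups compared (0.0861) and with all probe sets (0.0653).

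Whether the response to Adeno-Cre differs with diet was tested by the interaction. By limma 0 of the 37 genes passed (1 at an unadjusted p under 0.05, Dkc1), and 0.00451% of all genes did. The difference was larger in fasted livers for 23 of 37 genes, against 49.9% of all genes, with a median of 0.04. The 95% intervals of the 37 genes, not adjusted for the number of genes, ran from -0.45 (Noc3l) to 0.53 (Dkc1). Differences beyond that range lay outside the interval of every gene. Smaller differences between the diets are not excluded for every gene.

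Markers of the cell types of liver were compared in the same arrays. In bulk tissue, fewer cells of a type and less RNA per cell cannot be told apart. The 9 measured hepatocyte markers had mean levels of 12.33 to 12.343 in fasted and 12.259 to 12.335 in fed Adeno-Cre arrays. These lay below the levels after Adeno-GFP, 12.408 to 12.472 fasted and 12.344 to 12.36 fed. All 3 Adeno-Cre arrays were below for 6 of 9 markers in fasted and 3 in fed livers, against 10.9% and 11.5% of all genes. By limma 0 were called in either diet (3 and 1 at an unadjusted p under 0.05). Stellate cell markers, all 10 measured, had mean levels of 8.20 to 8.44 fasted and 8.35 to 8.53 fed after Adeno-Cre. These lay below those of 8.51 to 8.60 and 8.64 to 8.69 after Adeno-GFP. Of the 10, 1 fell in fed livers (Rgs5) and 3 over both diets (Rgs5, Reln and Ecm1), where 0.415% and 2.03% of all genes fell. Median differences of Kupffer cell, endothelial and cholangiocyte markers were -0.41, -0.07 and -0.25 in fasted livers and -0.02, -0.31 and 0.01 in fed livers. Those of T and NK cell, B cell, and neutrophil and monocyte markers were -0.05, -0.13 and -0.02 fasted and 0.12, -0.07 and -0.01 fed. Among these lists Gzma, a granzyme of cytotoxic lymphocytes, rose by 0.65 ± 0.14 in fasted livers (adjusted p = 0.0295), by 0.71 ± 0.14 in fed livers (0.0307) and by 0.68 ± 0.10 over both diets (0.00155). Over both diets the monocyte marker Ly6c2 rose by 0.73 ± 0.13 (adjusted p = 0.00593) and the cholangiocyte keratin Krt7 fell by 0.37 ± 0.09 (adjusted p = 0.0356), and no other marker of these 6 lists was called with Adeno-Cre in either diet or over both. No marker was listed at 0, and the part of cell composition in the differences of the biogenesis genes was not tested.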

How the data were processed

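Liver RNA of 12 arrays in 4 groups of 3 was analysed, with groups taken from the labels. The authors deposited log2 values of each probe set. Per the submitters' processing notes these came from RMA, which corrects background, equalises the distributions of the arrays and so removes any shift common to all genes. For the software, its version and the genome build nothing is given in the sources used here, and without signal over background no detection call was made. Of 41345 probe sets, 23521 named 1 gene in the platform annotation, 1814 named several and 16010 were not listed there. The number of arrays limits the precision.

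With limma 3.58.1 in R 4.3.3, 1 model with 4 group means was fitted to all 12 arrays, with eBayes (8 residual degrees of freedom). The p-values of each contrast received the Benjamini-Hochberg adjustment across 22180 genes, with a threshold of 0.05, and the fit was tested on simulated data. For an unadjusted p under 0.05 no share of all genes was computed, so those counts have no background beside them. The members and gene lists were chosen with earlier results of these data known. Genes are described array by array if they passed, had the smallest p of their role, or had the largest difference in a contrast; of other lists, up to 4 passing genes by smallest p, and Myc. Same-numbered arrays deviated together with correlations of -0.0905 to 0.112, so the numbers were not taken as pairs. Alternatives changed the filter, normalisation, prior, probe set rule or block, or left out 1 array. Promoters came from a RefSeq table (GRCm38.p6). Tables and figures were made in Python 3.11.15 with pandas 2.3.3 and matplotlib 3.10.9.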

Additional observations from a re-analysis of the deposited data

Results flagged for a closer look

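Mcm7, a subunit of the replicative helicase and one of the cell division genes measured beside the biogenesis genes, moved in opposite directions with fasting after the 2 injections. Fasted minus fed was -0.16 after Adeno-GFP, where all 3 fasted arrays were below the fed arrays, and 0.41 after Adeno-Cre, where all 3 were above. The interaction was 0.57 with an adjusted p of 0.538 in limma, so a difference between the injections is not shown. The rise after Adeno-Cre had an adjusted p of 0.0432 and passed in 8 of 19 alternatives. None of the 37 biogenesis genes had such a pattern. Groups of 3 arrays are too small for a check of single arrays that stand apart.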

How the results depend on the processing

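Of the 37 biogenesis genes called with Adeno-Cre in fasted livers, 0 remained when only the groups compared were fitted and 1 when all probe sets were tested, against 2. In fed livers 1 was called without dim genes and 1 with a trended and robust prior, against 0, and over both diets 6 without dim genes, against 2. Their fasted median was 0.0744 after a further quantile normalisation, against 0.12. Of the other biogenesis genes, the fasted count was 6 without dim genes, 0 with only the groups compared and 6 with the trended prior, against 2. The fed count was 1 without dim genes and 1 with the trended prior, against 0. Over both diets it was 11, 11 and, with all probe sets, 2, against 6. With fasting after Adeno-GFP it was 1 with only the groups compared and 1 with all probe sets, against 2, and after Adeno-Cre 6 without dim genes, 0 with only the groups compared, 6 with the trended prior and 0 with all probe sets, against 2. Of all genes, 7.42% were called without dim genes in fasted livers, 4.47% in fed livers, 14.2% over both diets and 7.95% with fasting after Adeno-Cre, and 4.23%, 2.43%, 7.32% and 4.22% with the trended prior. With only the groups compared, 1.44% of all genes were called in fasted livers, 1.78% with fasting after Adeno-GFP and 0.956% after Adeno-Cre. With all probe sets tested, 1.65% were called in fasted livers, 3.45% over both diets, 1.32% with fasting after Adeno-GFP and 1.06% after Adeno-Cre. Fewer genes are tested without dim ones and fewer arrays enter with only the groups compared. Other causes were not tested.

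Leaving out each array in turn gave 1 to 2 of the 37 genes called in fasted livers and 0 to 1 in fed livers. It gave 1 to 3 over both diets, 0 to 0 with fasting after Adeno-GFP and 0 to 1 after Adeno-Cre. The share of all genes called was 1.6% to 3.61%, 0.14% to 1.63%, 3.72% to 6.1%, 1.24% to 3.25% and 0.933% to 3.21% in that order. Medians of the 37 genes ran from 0.0848 to 0.133, 0.0508 to 0.106, 0.0867 to 0.114, -0.0296 to 0.0247 and 0.0222 to 0.0565 in the same order. Other biogenesis genes called numbered 1 to 4, 0 to 1, 2 to 5, 1 to 2 and 0 to 3. Positive differences of the 37 genes numbered 28 to 34 in fasted, 26 to 29 in fed livers and 29 to 33 over both diets.

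With the replicate number as a block, the 37 genes called were 2 in fasted livers (Nop58, adjusted p = 0.018, and Dkc1, 0.0278) and 2 over both diets, and of the other biogenesis genes 1 was called with fasting after Adeno-Cre, against 2. Of all genes, 2.39% were called with the block in fasted livers, 5% over both diets and 2.49% with fasting after Adeno-Cre. The block also ended the calls of Mga over both diets (adjusted p = 0.0528) and, with fasting after Adeno-Cre, of Taf1b (0.0663) and Fau (0.0513). The numbers are not shown to pair the arrays. The median of the 37 genes with fasting after Adeno-GFP, -0.0146, changed sign after a further quantile normalisation (0.00389) and without Adeno-GFP fasted replicate 2 (0.0175), Adeno-GFP fed replicate 1 (0.00608) or Adeno-GFP fed replicate 2 (0.0247), so it has no settled direction. The other medians of the 37 genes and the differences of the named genes kept their sign in the alternatives run. Signal over background was not used here, so dim genes limit the least certain differences.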

Other observations

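A second probe set of Rrs1 (17548383) differed with Adeno-Cre by -0.28 ± 0.08 (SE, limma fit of all probe sets) in fasted livers and by 0.22 ± 0.08 in fed livers, where the one used (17211000) gave 0.06 ± 0.09 and 0.15 ± 0.09. Another probe set of Nop56 (17376272), dimmer than the array medians, differed with fasting by 0.33 ± 0.13 after Adeno-GFP and 0.47 ± 0.13 after Adeno-Cre, where the one used (17376252) gave -0.13 ± 0.09 and -0.05 ± 0.09.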
